A study of Mus musculus with 25 samples.

Results

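The miR-200 and miR-183 clusters are 8 miRNA precursor hairpins at 3 loci of the mouse genome, and all 8 were found by name among the 1193 precursors of the deposited count table. They are mmu-mir-200b, mmu-mir-200a and mmu-mir-429 at the first locus, mmu-mir-200c and mmu-mir-141 at the second, and mmu-mir-183, mmu-mir-96 and mmu-mir-182 at the third, written without the species prefix from here on. They were followed in small RNA from the brain of male mice of the inbred strain C57BL/6 aged 2, 9, 15, 24 and 30 months. Each age had 5 libraries, 25 in all, and no treatment or mutation was given for any of them. Each title has its own animal number, so libraries were taken as separate animals, and the labels name the tissue as brain hemisphere without a description of its dissection. All 8 precursors passed the filter on low counts and were tested among 425 precursors.

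A miRNA guides silencing complexes to messenger RNAs mainly through its seed, bases 2 to 8 of the mature strand, so miRNAs with 1 seed share many targets. The miR-200 family is best known from epithelia, where it represses the transcription factors Zeb1 and Zeb2 and so keeps up E-cadherin, and in the mouse nervous system it is known from the olfactory bulb and olfactory epithelium. The miR-183 cluster is known from sensory cells, with all 3 of its miRNAs abundant in photoreceptors and in hair cells of the inner ear, and seed mutations of miR-96 cause progressive hearing loss in mice and humans.

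The mature strands usually taken as the main product of each hairpin are shown because their seeds divide the 8 precursors into groups that cut across the loci. The sequences are from RefSeq, build GRCm38.p6, written 5′ to 3′ with the seed in capitals.
miR-200b-3p: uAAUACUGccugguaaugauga
miR-200c-3p: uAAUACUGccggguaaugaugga
miR-429-3p: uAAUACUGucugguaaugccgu
miR-200a-3p: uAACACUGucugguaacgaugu
miR-141-3p: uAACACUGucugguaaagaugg
miR-183-5p: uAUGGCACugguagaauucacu
miR-96-5p: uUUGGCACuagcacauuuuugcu
miR-182-5p: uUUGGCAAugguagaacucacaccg

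The seed of miR-200b, miR-200c and miR-429 was shared by 3 precursors from 2 chromosomes, and that of miR-200a and miR-141 by 2, also from both chromosomes. The 3 miRNAs of the miR-183 locus had a seed each. Over the 22 positions compared from the 5′ end, miR-200b-3p and miR-200c-3p differed at 2 positions, U11G and A22G, where the first letter is the base of miR-200b-3p. miR-200a-3p and miR-141-3p also differed at 2, C17A and U22G, with the base of miR-200a-3p first. How reads with mismatches or several matches were counted is not given in the sources used here, so reads of such near-identical pairs could have been divided between precursors, and the counts are those of a hairpin with both arms together.

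The authors' build is not given in the sources used here, and the positions below are those of GENCODE M21 on GRCm38. There mir-200b (156055681 to 156055750), mir-200a (156054896 to 156054985) and mir-429 (156053905 to 156053987) are on the minus strand of chromosome 4, within 1846 bases of each other. All 3 lie inside introns of the protein-coding gene Ttll10 on the same strand, and mir-429 also overlaps an exon of the noncoding transcript Gm13648. On chromosome 6, mir-200c (124718322 to 124718390) and mir-141 (124717914 to 124717985) span 477 bases of the minus strand, in an intron of the noncoding gene Gm15884, and mir-141 also overlaps an exon of Gm29008. The third locus, with mir-183 (30169668 to 30169737), mir-96 (30169446 to 30169551) and mir-182 (30165918 to 30165992), spans 3820 bases of the minus strand of the same chromosome, 94.5 Mb away, and overlaps no other annotated gene.

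Libraries of the same age differed widely in these precursors. mir-182, with the most reads of the 8, had levels of 4464, 543, 2099, 210.3 and 1206 CPM at 2 months, in the order of replicates 1 to 5, where CPM is the count scaled to a common library size with factors from the trimmed mean of M values (TMM). It had 3859, 249, 181, 131 and 939.9 CPM at 9 months and 210.1, 285, 2606, 1283 and 359 CPM at 15 months. It had 185, 249.5, 2199, 258 and 649 CPM at 24 months and 5228, 843, 822, 5983 and 1814 CPM at 30 months. The highest library was thus 45.8-fold above the lowest, and the ranges of all 5 ages overlapped. In such bulk RNA, fewer cells of a type that carries these miRNAs and less of them per cell cannot be told apart. The highest library of each age had at least 2199 CPM, and every age except 30 months held at least 1 library at or below 210.3 CPM.

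mir-200a, of the chromosome 4 locus, followed the same libraries. Its levels were 418, 50.5, 245, 19.8 and 133 CPM at 2 months, 283, 12.9, 11.9, 13.4 and 85.7 CPM at 9 months and 17.8, 21.01, 236, 102 and 26.6 CPM at 15 months. They were 11.4, 13.5, 181, 19.97 and 43.5 CPM at 24 months and 437, 67.98, 56.1, 453 and 147 CPM at 30 months. The libraries highest in mir-182 at each age were the highest in mir-200a as well, and the span from lowest to highest was 39.8-fold.

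mir-141, which shares the miR-200a seed but lies on chromosome 6, had the widest span of the 6 precursors with reads in every library, 125-fold. It had 418, 38.1, 182.9, 23.8 and 90.03 CPM at 2 months, 305, 4.005, 6.57, 10.7 and 75.6 CPM at 9 months and 7.12, 11.3, 233, 109 and 22.8 CPM at 15 months. At 24 months it had 6.09, 15.8, 176, 9.36 and 43.5 CPM, and at 30 months 482, 74.7, 46.6, 499 and 147 CPM. Again 1 library at 9 months and 1 at 24 months stood well above the others of their age in CPM.

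Among the other precursors mir-200b ranged from 14.5 to 222.1 CPM with a median of 33.4, a 15.3-fold span that was the smallest of those 6. mir-429 ranged from 37.9 to 919 CPM (median 142, 24.2-fold) and mir-183 from 14.4 to 677 CPM (median 77.1, 47.0-fold). mir-200c and mir-96 were near the limit of detection in the low libraries. mir-200c was at 0 reads in 1 library, 15-month replicate 1, where 3 reads, taken as the limit that a count of 0 allows, correspond to 0.763 CPM, and it reached 29.2 CPM elsewhere. mir-96 was at 0 reads in 9-month replicate 2, with a limit of 0.445 CPM, and reached 29.3 CPM. These limits cover counting error only, since reads amplified without molecular identifiers are not independent molecules. Together the 8 precursors held between 0.0229% and 0.841% of the reads of a library.

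**Figure D1:**
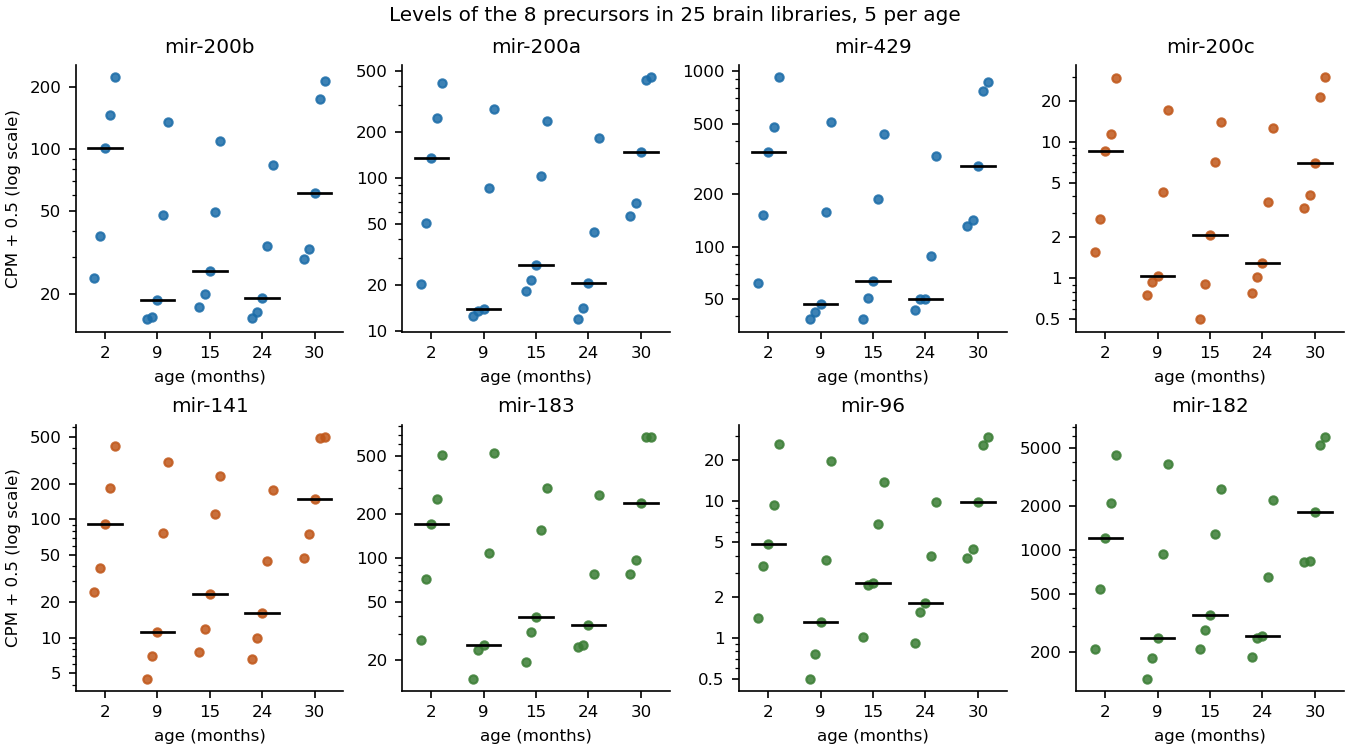
Level of each precursor in every library, as CPM + 0.5 on a log scale (vertical axis) by age in months (horizontal axis). Each point is 1 library, the line is the median of 5, and colours mark the 3 loci. At every age the points of each precursor spread widely, from 131 to 3859 CPM for mir-182 at 9 months.

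By reads per precursor, with no correction for length, the order of medians was mir-182, mir-429, mir-183, mir-200a, mir-141, mir-200b, mir-96 and mir-200c. mir-182 exceeded mir-429 in 25 of 25 libraries, mir-429 exceeded mir-183 in 24 and mir-183 exceeded mir-200a in 25. The order of mir-200a and mir-141 held in only 15 libraries, with 2 ties, that of mir-141 and mir-200b in 16, and that of mir-96 and mir-200c in 14, so these neighbours could not be ordered. mir-200b exceeded mir-96 in all 25. mir-182 made up 57.2% to 70.2% of the summed reads of the 8.

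The standard deviation (SD) of log2(CPM + 0.5) within an age was 1.64 for mir-182, 1.70 for mir-200a and 1.99 for mir-141, against a median of 0.16 over the other tested precursors. Ranked by this SD among 425 precursors, the 8 took places 3 to 10, and the next was mir-122 in place 11 with 0.70. Places 1 and 2 went to let-7j and mir-378d, whose spread followed the sequencing lane. let-7j lay at 0.120 to 4.23 CPM in lane 3 and at 19.6 CPM or more in the other lanes, and mir-378d had at least 0.148 CPM in lane 3 and at least 5.08 CPM in the others. mir-182 varied at least 5.08-fold and up to 40.0-fold within each of the 6 lanes, lane 3 included.

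Of the variance of the log2 levels of the 8 precursors, 23.7% to 30.8% lay between ages and 14.0% to 20.1% between lanes, against medians of 33.3% and 23.4% over the tested precursors. These shares are descriptions with no test, and means of so few libraries take up part of the variance even where groups do not differ. The libraries held 3.78 to 9.52 M reads (M, mega-reads), and the median depth was 5.61 M. For mir-182 and log2 total count Pearson's r was 0.02 and Spearman's rho 0.01, and across all 8 precursors, with total count and with the scaling factor, no adjusted p was below 0.960 (16 relations, permutation tests over 25 libraries).

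The 8 precursors rose and fell together from library to library, although they come from 3 loci on 2 chromosomes. Across the 25 libraries Pearson's r of log2(CPM + 0.5) lay between 0.93 and 0.996 over all 28 pairs, with a median of 0.97, and Spearman's rho lay between 0.93 and 0.99. Each pair had an adjusted p of 1e-05 for both measures, the smallest that 100000 permutations can give. The pair in closest step was mir-183 and mir-182, neighbours at 1 locus, with r = 0.996. The 7 pairs within a locus had r from 0.967 to 0.996 and the 21 pairs between loci from 0.93 to 0.99. The highest between loci was that of mir-200a and mir-182 (0.989), which lie on different chromosomes and share no seed.

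With lane means removed the lowest r of the 28 pairs was 0.936, with age means removed it was 0.946, and without the 2 libraries farthest from the median of the first member it was 0.912. Each lane held 4 or 5 libraries, too few for an r of its own. The widest gap in mir-182 on the log2 scale, 0.59 of a range of 5.51, lay between 359 and 543 CPM and separated the 10 lowest libraries from the other 15. The same 10 libraries held the 10 lowest levels of each of the 8 precursors. They were 1 library of 2 months, 3 each of 9, 15 and 24 months and 0 of 30 months. Within the 15 libraries above the gap r lay between 0.892 and 0.993, and within the 10 below it between 0.260 and 0.888, with a median of 0.585. The split was made on mir-182 itself, which spanned 131 to 359 CPM below the gap and 543 to 5983 CPM above it. A narrower range lowers r by itself, and the 10 low libraries had at most 9 reads of mir-200c and 11 of mir-96. The lower r there therefore does not show a looser relation, and the part of range and low counts was not tested.

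At the top, 3 libraries, 30-month replicates 4 and 1 and 2-month replicate 1, held the 3 highest levels of 7 of the 8 precursors. These 3 came from lanes 8, 5 and 3.

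**Figure D2:**
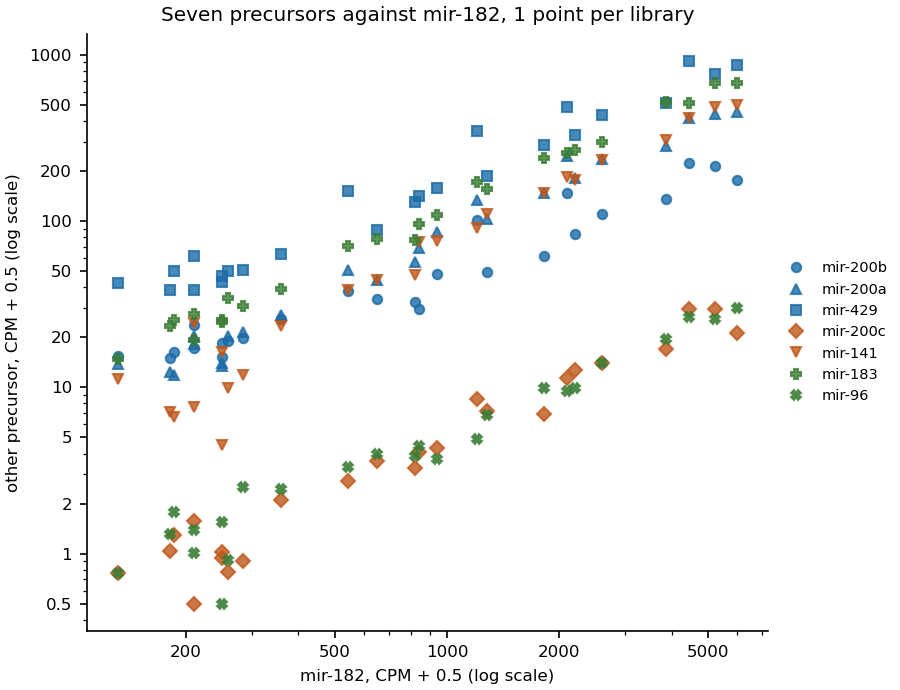
Levels of the 7 other precursors (vertical axis) against mir-182 (horizontal axis), both as CPM + 0.5 on log scales, with 1 point per library and precursor and colours by locus. All 7 climb with mir-182, with r of at least 0.93 between any pair of the 8.

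Outside the 3 loci no precursor passed the test for this pattern. Of 319 others with a mean of at least 10 CPM, the nearest to mir-182 was mir-25, of the miR-106b/25 cluster, with r = 0.56 and rho = 0.54 (adjusted permutation p = 0.325 and 0.357). It was followed by mir-187 (r = 0.53), mir-33 (0.52), an intronic miRNA of the Srebf2 gene, mir-320 (0.50) and mir-672 (0.48), all with an adjusted p of 0.325. Nearest to mir-200b was again mir-25 (r = 0.54, rho = 0.57, adjusted permutation p = 0.295 and 0.317), then mir-187, mir-181d, mir-378a and mir-540 with r from 0.44 to 0.45 (adjusted p = 0.509). Without the 2 libraries farthest from the median of mir-182, r was 0.54 with mir-25, 0.39 with mir-187, 0.35 with mir-33, 0.53 with mir-320 and 0.56 with mir-672. The precursors named here are those with the highest positive r, and the most negative r was -0.54 with mir-182 and -0.63 with mir-200b. For both mir-182 and mir-200b, 0 of the 319 passed an adjusted p of 0.05 in the two-sided test. mir-25 varied only 1.31-fold over all libraries, from 658 to 861 CPM.

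**Figure D3:**
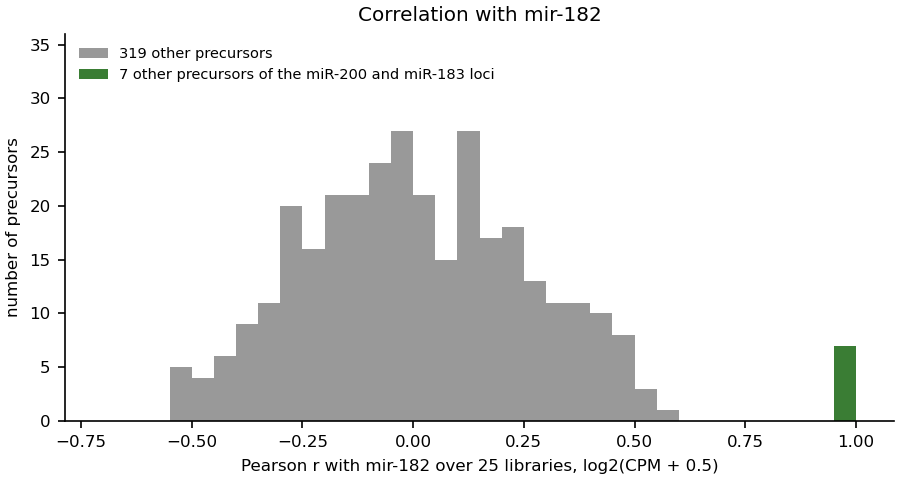
Number of precursors (vertical axis) by Pearson's r with mir-182 over 25 libraries (horizontal axis). Grey bars are the 319 precursors outside the 3 loci, whose r reaches 0.56 at most, and green bars are the 7 others at the 3 loci.

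No listed marker of a cell type passed the test for a correlation with mir-182 or mir-200b. Of 31 listed markers 27 were tested, each against mir-182 and against mir-200b, and the smallest adjusted permutation p was 0.509. With mir-200b r ran from -0.42 for mir-34b to 0.27 for mir-219a-2, and the r given below are those with mir-182. The choroid plexus miRNAs mir-204 and mir-211 had r of -0.20 to -0.22 with mir-182, and their summed level ranged from 6441 to 7821 CPM at 30 months and from 5761 to 6867 CPM at 2 months. The multiciliated-cell list (mir-34b, mir-34c and mir-449 precursors, 4 of 5 tested) had r from -0.33 to 0.21 and summed to 2380 to 2717 CPM at 30 months and 1790 to 2403 CPM at 2 months. Other epithelial and neuroendocrine miRNAs, mir-203, mir-205, mir-375 and mir-31, had r from -0.01 to 0.29, and summed to 586 to 657 CPM at 30 months and 484 to 542 CPM at 2 months. The erythroid list (mir-451a, mir-144, mir-486a and mir-486b), a sign of blood in the tissue, had r from 0.09 to 0.33 and summed to 2523 to 4999.7 CPM at 30 months and 2068 to 3493 CPM at 2 months.

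In the list of Hox-cluster miRNAs, which mark hindbrain and spinal cord, 2 of 5 were tested, with r of 0.04 to 0.15. mir-196a-1 was at 0 in all libraries, and the list summed to 827 to 1462 CPM at 30 months and 574 to 948 CPM at 2 months. The 3 oligodendrocyte markers, mir-338 and the mir-219a pair, had r from 0.18 to 0.44. Without the 2 libraries farthest from the median of mir-182, r was 0.22 for mir-219a-1, 0.25 for mir-219a-2 and -0.07 for mir-338. Over all 27 tested markers r in this check ran from -0.42 for mir-34b to 0.27 for mir-144. It was -0.29 for mir-204, -0.35 for mir-211, -0.38 for both mir-34c and mir-449c, and 0.12 for mir-449a. The oligodendrocyte list summed to 3612 to 4554 CPM at 30 months and 2487 to 2913 CPM at 2 months. The 8 neuronal precursors, of mir-124, mir-9 and mir-128, include hairpins with the same mature strand, whose counts are uncertain one by one, and had r from -0.06 to 0.10. They summed to 62080 to 79793 CPM at 30 months and 69180 to 79741 CPM at 2 months, and the lowest of the 25 libraries had 58847 CPM. Between 30 and 2 months 3 multiciliated, 1 other epithelial, 1 Hox-cluster and 3 oligodendrocyte markers were higher at 30 months. Another 2, both neuronal, were lower, and 0 of the choroid plexus and erythroid markers passed. These 10 of 27 tested markers make 37.0%, near the 36.9% of all 425 precursors called in that comparison. In the epithelial and neuroendocrine list the log2 fold changes were 0.56 ± 0.08 (SE) for mir-203, which passed, and 0.21 ± 0.14 for mir-375, 0.12 ± 0.06 for mir-31 and -0.42 ± 0.33 for mir-205, which did not. The part of any of these cell types in the levels of the 8 precursors was not tested.

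Across age, none of the 8 precursors passed the test in any comparison. Between 30 and 2 months edgeR's quasi-likelihood test, adjusted over 425 precursors, called 36.9% of all precursors and 0 of these 8. At an unadjusted p under 0.05 there were 0 of the 8, beside 197 of all 425. DESeq2 also called 0 of the 8. mir-182 averaged 2938 ± 2482 CPM at 30 months and 1705 ± 1703 CPM at 2 months (SD, n = 5 each), a log2 fold change of 0.79 ± 0.97 (standard error, SE, adjusted p = 0.563). mir-200a averaged 232 ± 197 CPM at 30 months and 173 ± 162 CPM at 2 months, a log2 fold change of 0.42 ± 0.99 (adjusted p = 0.750, edgeR).

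mir-141 averaged 249.8 ± 223 CPM at 30 months and 151 ± 162 CPM at 2 months (0.73 ± 1.14, adjusted p = 0.633, edgeR). mir-200b lay at 102 ± 86.0 CPM at 30 months and 106 ± 81.7 CPM at 2 months, with a log2 fold change of -0.06 ± 0.74 (adjusted p = 0.952, edgeR). The other 4 lay between 0.16 for mir-429 and 0.77 for mir-183, so 7 of the 8 were above 0. The median of the 8 was 0.57, against 0.05 over all tested precursors. Because the 8 rose and fell together across libraries, a shared direction here and in the comparisons below is not 8 separate observations. The median SE of the 8 was 0.96 on the log2 scale, against 0.10 over all tested precursors. The 95% interval of mir-182 ran from -1.22 to 2.79 and that of mir-200b from -1.59 to 1.47, both past a log2 change of 1 in either direction. Leaving out 1 library, the log2 fold change of mir-182 ran from 0.35 without 30-month replicate 4 to 1.53 without 2-month replicate 1.

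The direction between 30 and 2 months also depended on which libraries were set side by side. Lanes 3, 5, 6 and 7 had 1 library of either age, and in each the 8 precursors all lay on 1 side, which is 1 comparison per lane and not 8. In lanes 5 and 6 all 8 were higher at 30 months, by log2 differences of 0.31 to 2.00. In lanes 3 and 7 all 8 were lower at 30 months, by -2.09 to -0.34. mir-182, for example, had 5228 CPM at 30 months and 2099 CPM at 2 months in lane 5, but 1814 CPM at 30 months and 4464 CPM at 2 months in lane 3. With lane as a covariate 4 of the 8 lay below 0, mir-200b at -0.48, mir-429 at -0.29, mir-200c at -0.24 and mir-200a at -0.087, and mir-182 lay at 0.39. Without lane 3 all 8 lay above 0, between 0.50 for mir-200b and 1.82 for mir-96, with mir-182 at 1.62. None of the 8 passed in either setting (edgeR, smallest adjusted p = 0.128).

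Of the 5 pairs of ages compared, 30 against 24 months had the largest log2 fold changes by median. They ran from 1.62 ± 0.76 (SE) for mir-200b to 2.32 ± 1.19 for mir-141. mir-182 had 822 to 5983 CPM at 30 months and 185 to 2199 CPM at 24 months, with 1 library of 24 months, replicate 3, above 3 of the 30-month libraries. All 8, which are not independent of each other, were above 0, with a median of 2.05 against 0.00 over all tested precursors. Of the 8, 0 passed, with adjusted p from 0.188 to 0.291 (edgeR), where 8.71% of all precursors were called. At an unadjusted p under 0.05 there were 3, mir-200b, mir-429 and mir-96, beside 95 of all 425. With 1 library left out at a time, the log2 fold change of mir-182 ran from 1.62 to 3.13, and 0 of the 8 passed each time. Its highest value, 3.13, and those of the other 7 came without 24-month replicate 3.

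In the remaining comparisons 0 of the 8 passed. For 9 against 2 months, where 7.76% of precursors were called, the median of their log2 fold changes was -1.07, and all 8 were below 0. It was -0.04 for 15 against 9 months (0% called; 27 of 425 at an unadjusted p under 0.05, and 2 called by DESeq2). For 24 against 15 months it was -0.51 (0.235% called). Without the 5 libraries of lane 3, 1 of each age, these medians were -0.00, -1.17 and 0.59. Single libraries moved them as far. Without 9-month replicate 1 the median for 9 against 2 months was -2.48, without 2-month replicate 1 it was -0.27, and without 9-month replicate 1 that for 15 against 9 months was 1.38. Without 15-month replicate 3 it was -0.92. Without 24-month replicate 3 the median for 24 against 15 months was -1.65, and without 15-month replicate 3 it was 0.39. Over all 5 ages, any difference was called for 32.7% of precursors and a linear slope on age for 35.5%. For the 8 the adjusted p of any difference lay between 0.191 and 0.395 (edgeR). Without 9-month replicate 1 it lay between 0.0523 and 0.136, without 24-month replicate 3 between 0.0670 and 0.152, and without 15-month replicate 3 between 0.0848 and 0.232. Without 30-month replicate 4 it lay between 0.292 and 0.628, and without 30-month replicate 1 between 0.284 and 0.618. Their slopes ran from -0.06 ± 0.27 (SE, log2 per 12 months) for mir-200b to 0.26 ± 0.35 for mir-96 (edgeR, adjusted p from 0.586 to 0.959).

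**Figure D4:**
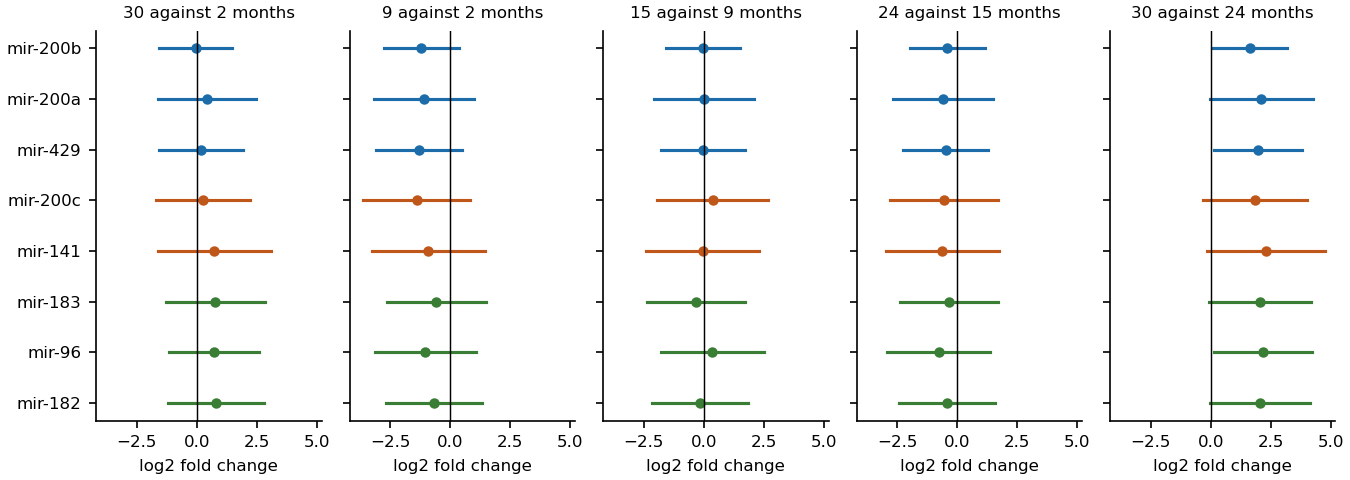
Log2 fold change (horizontal axis) with its 95% interval from edgeR for each precursor (rows, coloured by locus) in 5 comparisons of ages (panels), the older age over the younger. Intervals span several log2 units, and in the panel of 30 against 24 months those of mir-200b, mir-429 and mir-96 lie above 0 before adjustment.

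Read ratios between neighbours of a locus varied less than the levels, with log2 SDs of 0.17 to 0.89 over the 25 libraries. Ratios between loci were not computed, and levels at different loci had r of up to 0.989. A small spread is therefore not shown to be particular to neighbours. The log2 ratio of mir-183 to mir-182 reads had the smallest SD, while the levels of the 2 precursors had SDs of 1.77 and 1.73. The ratio itself ran from 0.0901 to 0.142, with a median of 0.119. The ratio of mir-141 to mir-200c had a median of 16.5 and that of mir-96 to mir-182 a median of 0.00482, both with wide ends where mir-200c or mir-96 had few or 0 reads.

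The ratio of mir-200a to mir-200b, which are 2 seeds from 1 locus, ran from 0.714 to 2.58. It climbed with the level of mir-182, a precursor of another chromosome (r = 0.89, rho = 0.88, adjusted permutation p = 5e-05 for each over 5 ratios; r = 0.88 without the 2 libraries farthest from the median of mir-182). With lane means removed r was 0.89, and without lane 3 it was 0.90. The ratio of mir-429 to mir-200b did the same (r = 0.76, rho = 0.72, adjusted permutation p = 7.5e-05 and 2e-04; r = 0.79 with lane means removed). The other 3 ratios had r from -0.05 to 0.29 with a precursor of another locus (adjusted permutation p from 0.197 to 0.804). These relations with level were looked for after the ratios had been seen. They largely restate the levels, since mir-200a, mir-429 and mir-200b all followed mir-182, with log2 SDs of 1.82, 1.57 and 1.32. A ratio of a wider to a narrower of these climbs with mir-182, so the p-values are no separate support.

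By age, the mir-200a to mir-200b ratio was 1.73 to 2.58 at 30 months and 0.854 to 1.88 at 2 months. The mean log2 ratio was 1.14 ± 0.23 at 30 months and 0.45 ± 0.44 at 2 months (SD, n = 5 each), a difference of 0.69 with p = 0.0159 in an exact two-sided permutation test. The smallest p that 5 against 5 allows is 0.00794. Adjusted over the 5 ratios the p was 0.0794, so the difference did not pass. Without 2-month replicate 1 it was 0.80 and passed (exact permutation test, adjusted p = 0.0397). With mir-429 over mir-200b the difference was 0.35 (exact permutation p = 0.0397, adjusted p = 0.0992). The other 3 ratios differed by -0.14 to 0.34 (adjusted p from 0.212 to 0.857). Once the straight-line dependence on the mir-182 level was taken out, the mir-200a to mir-200b difference was 0.39 (exact permutation p = 0.0794, adjusted p = 0.198). Because the ratio climbed with mir-182, which averaged more at 30 than at 2 months, this step had to lower the difference. The drop is therefore no separate evidence on age. Reads of near-identical miR-200 strands counted at the wrong hairpin could enter these ratios, and their part was not tested.

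**Figure D5:**
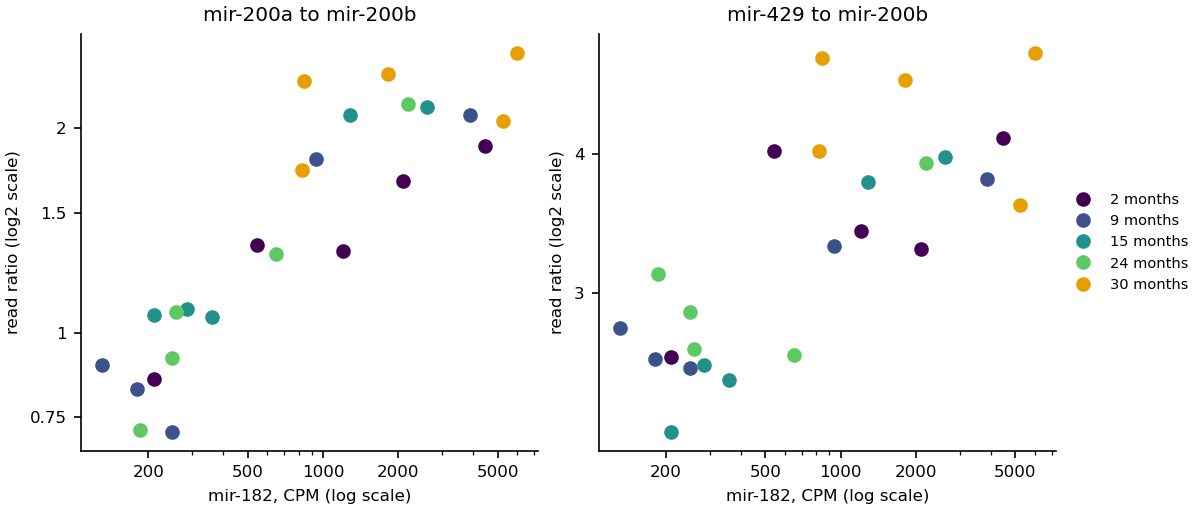
Read ratio of mir-200a to mir-200b (left) and of mir-429 to mir-200b (right) on a log2 scale against the mir-182 level in CPM on a log scale, with 1 point per library coloured by age. Both ratios climb with mir-182, and the 30-month libraries lie between 1.73 and 2.58 on the left.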

How the data were processed

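For each of 25 libraries, made with the TruSeq small RNA kit per the labels' protocols, the authors deposited raw counts for 1193 precursor hairpins. The submitters' processing notes list Trimmomatic 0.36, bcl2fastq 1.8.4 and SAMtools 1.3.1-9. The sources used here do not name the aligner, counting tool, strand setting, multi-mapping rule or build. Lanes came from the column names of the count table. Replicate numbers only name libraries.

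edgeR 4.0.16 (with limma 3.58.1, in R 4.3.3) kept 425 precursors by filterByExpr, scaled libraries by TMM (factors 0.952 to 1.04) and fitted 1 quasi-likelihood model with a mean per age. P-values were adjusted by Benjamini-Hochberg over 425 precursors, with a threshold of 0.05. SE is the log2 fold change over the square root of F. DESeq2 1.42.0 was an alternative. Correlations on log2(CPM + 0.5) used Python 3.11.15, SciPy 1.17.1, NumPy 2.4.6 and 100000 two-sided permutations, adjusted over 28 pairs, 319 precursors, 27 markers or 5 ratios. Figures used matplotlib 3.10.9. Ratios used counts + 0.5. Code was tested on simulated data.

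Named precursors are the 8 members, the 5 others with the highest r to mir-200b and to mir-182 (mean of at least 10 CPM) and the 7 marker lists, with let-7j, mir-378d and mir-122 chosen after their values were seen. Members and lists were chosen with earlier results of these data known. The relation of ratios to level, the ratios at equal level, the within-lane differences and the correlations on either side of the widest gap and the gaps within an age on the log2 scale were added after seeing the data.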

Additional observations from a re-analysis of the deposited data

Results flagged for a closer look

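At 9 months replicate 1 lay well above, in CPM, the other 4 libraries of its age for all 8 precursors. It had 283 CPM of mir-200a (the next highest library had 85.7), 135 CPM of mir-200b (47.5), 514 CPM of mir-429 (157), 16.6 CPM of mir-200c (3.80), 305 CPM of mir-141 (75.6), 523 CPM of mir-183 (108), 19.1 CPM of mir-96 (3.23) and 3859 CPM of mir-182 (939.9).

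At 24 months replicate 3 did so for 7 of them. It had 181 CPM of mir-200a (next highest 43.5), 83.4 CPM of mir-200b (33.4), 328 CPM of mir-429 (88.1), 12.2 CPM of mir-200c (3.12), 176 CPM of mir-141 (43.5), 269 CPM of mir-183 (77.1) and 2199 CPM of mir-182 (649).

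In each of these 15 cases, of 40 groups of 5 libraries examined, the gap to the nearest library took up a larger share of the group's range in CPM than Dixon's 95% critical value. Chance flags about 1 in 20 groups of normally distributed values, a rate that need not hold for CPM spread over ranges this wide, and the 8 precursors are not independent of each other. On the log2 scale, tried after seeing the data, the gap took up 0.33 to 0.65 of the range in the 15 cases, and 0 of them passed the critical value of 0.71. Both libraries were sequenced in lane 8, as was 30-month replicate 4, the library with the most mir-182 reads. The fourth library of that lane, 15-month replicate 2, had 285 CPM of mir-182. Within that lane mir-182 varied 21.0-fold.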

How the results depend on the processing

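In every setting tried 0 of the 8 precursors were called in each comparison of ages, and all 28 correlations passed, with a lowest r of 0.924 to 0.944 when 1 library was left out. No paired analysis was possible because the labels give no replicate numbers that link animals across ages. Causes of the changes below were not tested.

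Over all precursors tested, 30 against 24 months called 20 with no filter and 18 with only both ages in the fit, against 37. For 9 against 2 months the counts were 15 with no filter, 50 with lane as a covariate and 4 with only both ages in the fit, against 33. For 24 against 15 months they were 0 with upper-quartile scaling, no filter, without lane 3 or with only both ages, and 2 with lane as a covariate or DESeq2, against 1. DESeq2 called 2 for 15 against 9 months, where edgeR called 0. Leaving out 1 library gave 135 to 169 calls for 30 against 2 months, 13 to 41 for 9 against 2, 0 to 2 for 15 against 9, 0 to 1 for 24 against 15, 16 to 52 for 30 against 24, 123 to 154 for any difference and 119 to 151 for the slope.

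Uncalled log2 differences changed sign as follows. With lane as a covariate, 30 against 2 months gave -0.087 for mir-200a, -0.29 for mir-429 and -0.24 for mir-200c, and the slopes were -0.055 for mir-200a, -0.13 for mir-429 and -0.054 for mir-200c. Without lane 3, mir-200b gave 0.50 and a slope of 0.15, and the mir-96 to mir-182 difference at equal level was 0.084. The mir-429 slope was -0.012 with upper-quartile scaling, and the mir-96 to mir-182 ratio difference was -0.16 with a pseudocount of 5. Leaving out 1 library, 30 against 2 months ran from -0.51 to 0.40 for mir-200b, -0.24 to 0.75 for mir-429 and -0.30 to 1.13 for mir-200c. The slopes ran from -0.091 to 0.38 for mir-200a, -0.28 to 0.14 for mir-200b, -0.19 to 0.28 for mir-429, -0.20 to 0.47 for mir-200c and -0.0033 to 0.66 for mir-96. The mir-96 to mir-182 difference ran from -0.068 to 0.097, and at equal level from -0.17 to 0.024. Of the 5 ratios, 0 to 1 passed.

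mir-200c had 3 or fewer reads in 6 libraries and mir-96 in 4, which limits their levels there. The biological coefficient of variation was 1.21 for mir-200c and 1.13 for mir-96, against 1.14 for mir-141, which had more reads. The part of these low counts in the spread of mir-200c and mir-96 was not tested.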
